A study of Mus musculus with 6 samples.

Results

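The genes described here encode zinc-dependent histone deacetylases (HDACs), the enzymes that remove acetyl groups from lysines with a zinc ion in the active site. The 9 genes *Hdac1*, *Hdac2*, *Hdac3*, *Hdac4*, *Hdac5*, *Hdac7*, *Hdac9*, *Hdac10* and *Hdac11* were taken as members of this family, among 21938 protein-coding genes. Other genes of the family were not analysed here, so class I below means *Hdac1*, *Hdac2* and *Hdac3* alone. Each gene was examined over its body and 20 kb on either side, a span called its window below. The 9 windows held 15 of 11106 peaks of acetylated lysine 56 of histone H3 (H3K56ac).

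The peaks came from ChIP-seq of V6.5 mouse embryonic stem cells (mESCs), grown over a feeder layer. Lentivirus gave them a scrambled shRNA (Scramble) or one that targets *Sirt6* (*Sirt6* KD), and puromycin selected for its uptake. Every group thus held infected cells, and no uninfected group was part of the design. There were 2 H3K56ac libraries and 1 input library from Scramble cells, and 2 and 1 from *Sirt6* KD cells. The processed data were a single merged set of peak positions on mm10, without a value for any library. Scramble and *Sirt6* KD cells could therefore not be compared, replicate error could not be given and no test was made. Each peak may have been called in Scramble cells, in *Sirt6* KD cells or in both, and the set does not say which. The paper lists more enriched peaks for each *Sirt6* KD library than for either Scramble library. Because the set holds neither read depth nor peak height, a gene without a peak is a gene where none was called, not a gene shown to lack the mark. It also holds no expression values, so the labelled cell type could not be checked against marker genes.

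Zinc-dependent HDACs fall into classes by sequence. The class I enzymes examined here (HDAC1, HDAC2 and HDAC3) are nuclear and act within corepressor complexes. HDAC1 and HDAC2 have been described as deacetylases of H3K56 in mammalian cells, like the NAD-dependent enzyme SIRT6. Class IIa enzymes (HDAC4, HDAC5, HDAC7 and HDAC9) shuttle between nucleus and cytoplasm, have weak activity of their own and bind MEF2 transcription factors, class IIb includes the polyamine deacetylase HDAC10, and HDAC11 is the sole member of class IV and removes long fatty acyl groups from lysines.

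H3K56ac was called at the promoters of 6 of the 9 genes. A promoter peak was defined as a peak with any base within 1 kb of a transcription start site (TSS) of the gene. All 3 class I genes examined had one, against 3 of the 6 genes of classes II and IV (*Hdac4*, *Hdac5* and *Hdac10*). Among all protein-coding genes, 35.7% had one. When the midpoint of the peak had to lie within 1 kb, the same 6 genes were counted, beside 33.9% of all genes. *Hdac7*, *Hdac9* and *Hdac11* had no peak anywhere in their windows, which was also the case for 47.5% of all genes.

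Promoter and peak sequences are shown first for the genes that set the contrast: peaks over CpG-dense starts (*Hdac2*, *Hdac4*), a similarly CpG-dense start without a peak (*Hdac7*), starts without a peak at lower CpG content (*Hdac11*, *Hdac9*), and a pair of peak centres with few and with intermediate numbers of CpG (*Hdac1*, *Hdac10*). Promoters are the 300 bases from 250 before to 50 after a RefSeq start on GRCm38.p6, and peak centres are 200 bases of GRCm38, all written along the gene's strand with each CpG in capitals. RefSeq entries were found for *Hdac2*, *Hdac4*, *Hdac5*, *Hdac7*, *Hdac9* and *Hdac11*.
Hdac2 promoter, chr10:36974294-36974593, plus strand: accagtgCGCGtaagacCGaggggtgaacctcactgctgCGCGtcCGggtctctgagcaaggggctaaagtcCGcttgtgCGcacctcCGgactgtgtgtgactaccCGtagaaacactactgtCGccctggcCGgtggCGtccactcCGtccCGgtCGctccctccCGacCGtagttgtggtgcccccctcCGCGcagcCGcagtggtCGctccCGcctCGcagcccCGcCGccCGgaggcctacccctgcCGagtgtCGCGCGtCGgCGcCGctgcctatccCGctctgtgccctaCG
Hdac4 promoter at its inner start, chr1:92180292-92180591, minus strand: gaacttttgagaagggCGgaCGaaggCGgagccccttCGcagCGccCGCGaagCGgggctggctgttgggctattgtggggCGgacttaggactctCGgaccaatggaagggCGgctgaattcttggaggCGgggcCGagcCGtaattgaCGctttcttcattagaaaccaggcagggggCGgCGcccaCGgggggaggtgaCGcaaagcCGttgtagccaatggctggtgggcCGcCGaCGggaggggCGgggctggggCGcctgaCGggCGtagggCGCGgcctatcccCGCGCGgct
Hdac7 promoter at an inner start, chr15:97831446-97831745, minus strand: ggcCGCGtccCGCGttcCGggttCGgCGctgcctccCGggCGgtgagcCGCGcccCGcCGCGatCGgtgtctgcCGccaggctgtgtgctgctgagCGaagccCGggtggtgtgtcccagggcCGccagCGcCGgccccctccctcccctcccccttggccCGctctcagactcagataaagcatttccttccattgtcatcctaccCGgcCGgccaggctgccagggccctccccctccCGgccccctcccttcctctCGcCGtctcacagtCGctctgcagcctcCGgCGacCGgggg
Hdac11 promoter, chr6:91156565-91156864, plus strand: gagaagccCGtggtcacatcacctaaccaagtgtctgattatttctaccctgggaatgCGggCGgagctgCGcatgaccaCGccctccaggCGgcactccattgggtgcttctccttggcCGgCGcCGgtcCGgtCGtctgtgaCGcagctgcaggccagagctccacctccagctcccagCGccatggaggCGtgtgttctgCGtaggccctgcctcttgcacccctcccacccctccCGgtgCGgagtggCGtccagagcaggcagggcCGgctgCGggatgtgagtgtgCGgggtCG
Hdac9 promoter at its 5′ end, chr12:34917046-34917345, minus strand: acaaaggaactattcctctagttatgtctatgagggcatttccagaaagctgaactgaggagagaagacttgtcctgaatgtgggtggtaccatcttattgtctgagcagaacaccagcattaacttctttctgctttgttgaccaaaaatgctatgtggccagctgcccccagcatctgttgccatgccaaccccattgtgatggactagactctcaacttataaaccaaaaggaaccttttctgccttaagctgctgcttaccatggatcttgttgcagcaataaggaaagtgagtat
Hdac1 peak centre, chr4:129542065-129542264, minus strand: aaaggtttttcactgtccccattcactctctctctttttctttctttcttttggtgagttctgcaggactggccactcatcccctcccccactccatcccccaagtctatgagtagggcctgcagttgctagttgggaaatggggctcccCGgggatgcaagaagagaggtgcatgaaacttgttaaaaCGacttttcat
Hdac10 peak centre, chr15:89128551-89128750, minus strand: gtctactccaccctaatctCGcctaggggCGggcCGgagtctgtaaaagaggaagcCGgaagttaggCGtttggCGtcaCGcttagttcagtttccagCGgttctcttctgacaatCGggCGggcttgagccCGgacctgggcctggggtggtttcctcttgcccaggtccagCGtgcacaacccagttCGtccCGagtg

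The *Hdac2* promoter held 36 CpG in its 300 bases and the *Hdac4* promoter 32, and every base of both lay under a peak. The printed *Hdac7* promoter, at an inner start, held 31 CpG, and none of its bases lay under a peak. The other *Hdac7* promoters held 35, 5 and, at the 5′ end of the gene, 6 CpG, also with no base under a peak. For comparison, the median over 32817 RefSeq promoters was 7 CpG, with quartiles of 3 and 20. The *Hdac5* promoter, also fully under a peak, held 18 CpG, fewer than the 22 of the peak-free *Hdac11* promoter. The *Hdac9* promoter at the 5′ end of the gene held 0 CpG and the other *Hdac9* promoter, at an inner start, held 3, neither with a base under a peak. Thus the number of CpG did not separate promoters with a peak from those without.

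Short motifs were searched as exact letters on both strands of these promoters. The GC box (GGGCGG) was found in the promoters of *Hdac2*, *Hdac4*, *Hdac5* and *Hdac11* and in 1 of 4 *Hdac7* promoters, and in 35.6% of all RefSeq promoters. The CCAAT box (CCAAT) was found at *Hdac4*, *Hdac5* and *Hdac11* and in 37.4% of all. Both motifs occurred at genes with a peak and at genes without one. An E-box (CACGTG, 7.15% of all) occurred only at *Hdac5* among the members searched, and a TATA motif (TATAAA, 13.6% of all) only at the 5′ end of *Hdac9*. The letters for NRF1 (GCGCATGC, 2.71% of all), CRE (TGACGTCA, 1.79%), ETS (CCGGAAGT, 3.89%) and YY1 (AAGATGGC, 2.74%) were in none of these promoters. The printed centre of the *Hdac10* peak held a GC box and the ETS letters. The E-box and CRE letters read the same on both strands, and no searched motif contains another.

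**Figure D1:**
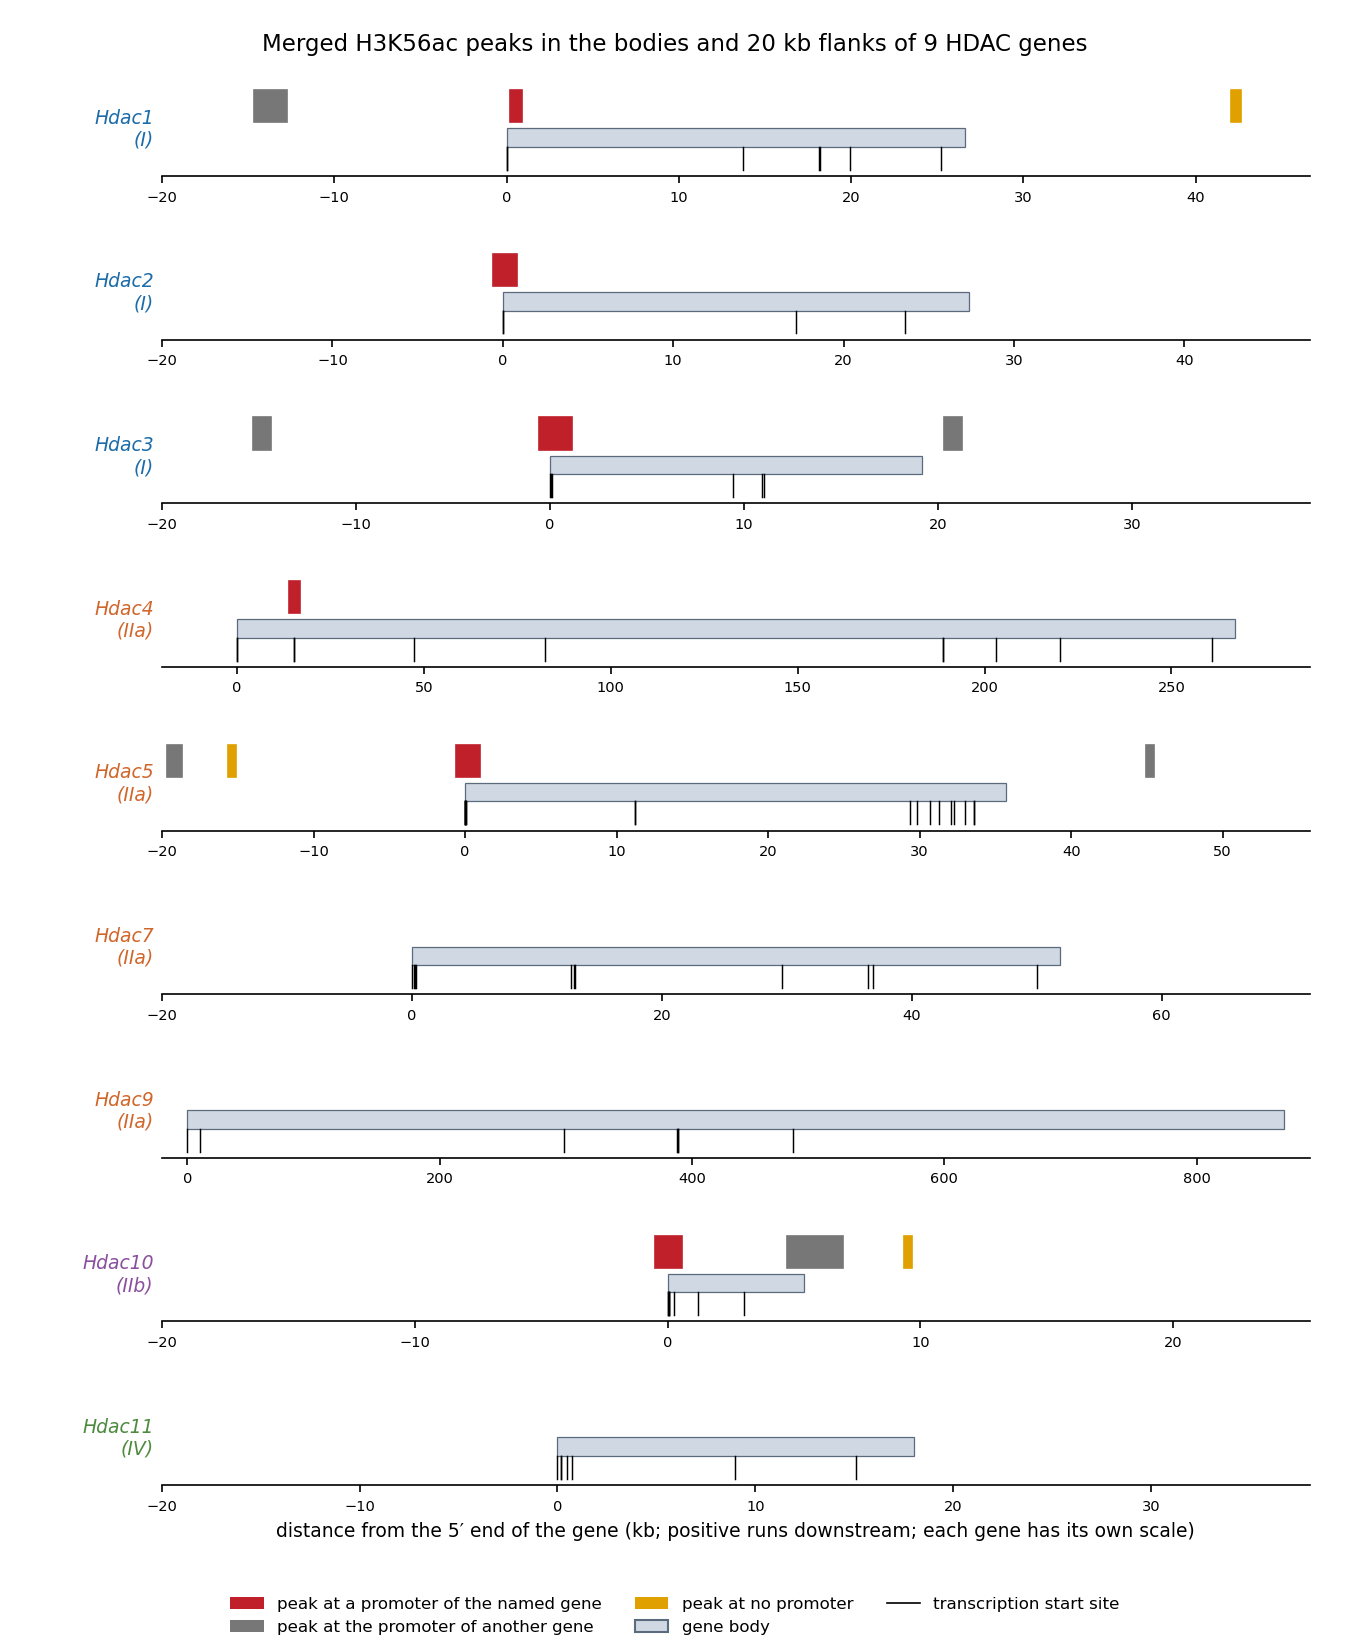
Each row maps 1 HDAC gene with its 5′ end at 0 kb, its body as a pale bar, its annotated TSS as ticks below and merged H3K56ac peaks as blocks above, each row on its own horizontal scale and extended by 20 kb on either side. Blocks at a promoter of the named gene are present in 6 rows, and the rows of *Hdac7*, *Hdac9* and *Hdac11* hold no block.

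Of the 15 peaks, 6 lay at promoters of the HDAC genes themselves, 6 at promoters of other protein-coding genes in the windows, and 3 at no promoter of a protein-coding gene. Class I windows held 7 peaks, of which 3 lay at their own promoters, 3 at promoters of other genes and 1 at no promoter. Windows of classes II and IV held 8, of which 3, 3 and 2 lay in those places.

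Class I genes had bodies of 19173 to 27346 bp and 1 to 3 peaks in each window, whereas the genes of classes II and IV ranged from the most peak-dense window to windows with none. The density was 4.50 peaks per 100 kb of window at *Hdac1*, 1.49 at *Hdac2* and 5.07 at *Hdac3*. In classes II and IV it was 6.61 at *Hdac10*, 5.28 at *Hdac5*, 0.326 at *Hdac4* and 0 at the remaining 3 genes. The ranges of the classes overlapped, since *Hdac5* and *Hdac10* exceeded every class I gene. The median was 4.50 peaks per 100 kb for class I, 0.163 for classes II and IV, and 0.610 for all protein-coding genes. That last median varied with body length. It was 1.782 for bodies of 10 to 20 kb (*Hdac3*, *Hdac11*) and 1.311 for 20 to 50 kb (*Hdac1*, *Hdac2*, *Hdac5*). For 50 to 100 kb (*Hdac7*) it was 0.855. It was 0 for 5 to 10 kb (*Hdac10*), for 200 to 500 kb (*Hdac4*) and for 500 kb or more (*Hdac9*). With flanks of 10 kb the class medians were 2.15 and 0.174, and with 50 kb they were 2.37 and 0.560, so the size of the contrast depended on the window. Pooled over the windows of each class, the density was 3.625 in class I and 0.538 in classes II and IV, beside 1.096 over all genes, whose windows overlap. Window size differed alongside: the summed windows measured 193.1 kb in class I and 1487 kb in classes II and IV, of which *Hdac9* alone took 909.5 kb. Its part in the difference of densities was not tested.

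Peaks covered 2.44% of the *Hdac1* body, 3.03% of *Hdac2* and 6.07% of *Hdac3*. In the other classes they covered 23.6% of the *Hdac10* body, 2.78% of *Hdac5*, 1.05% of *Hdac4* and 0% of *Hdac7*, *Hdac9* and *Hdac11*. The high share at *Hdac10* goes with its short body of 5394 bp, of which 1275 bp were covered, against 2814 bp covered in *Hdac4*. Outside the promoter peak, 5 of the 6 genes with one had no further peak in the body, beside 88.5% of all genes with a promoter peak. The exception was *Hdac10*, whose 3′ end lies under the promoter peak of the neighbouring *Tubgcp6*, which encodes a subunit of the microtubule-nucleating gamma-tubulin complex.

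*Hdac1*, with *Hdac2* a catalytic subunit of the NuRD, SIN3 and CoREST complexes, had the narrowest promoter peak of the 6. It measured 649 bp (chr4:129541840-129542488) and stood at the 17.7th percentile of the widest promoter peaks of genes that had one. The peak began 203 bp downstream of the nearest TSS and covered no TSS, while a peak covered a TSS in 70.0% of genes with a promoter peak and in 5 of the 6 HDAC genes. Its midpoint was intronic and stood 527 bp past this TSS. The CpG ratio (observed over expected CpG) was 0.783 around the 5′ end, taken 500 bp to each side, and 0.458 over the peak itself, and the 200 bases at the peak's centre held 2 CpG, compared with 25 at the centre of the *Hdac2* peak.

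The start of *Hdac1* was the only one of 25 annotated start regions, each 1 kb on either side of a 5′ end or of a TSS in the basic annotation of the 9 genes, that held any 75-base stretch also found elsewhere in the genome. It held 19 of 1927 such stretches (0.986%), and none lay in its peak. At this length, therefore, these starts and the 6 promoter peaks held nearly no exact repeats, including the examined starts of *Hdac7*, *Hdac9* and *Hdac11*. Stretches that match elsewhere with a mismatch were not counted. Other starts outside the basic annotation, such as that of *Hdac9* at chr12:34906979, were not examined.

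*Hdac2* had a single peak in its window, of 1393 bp (chr10:36973980-36975372, 51.3rd percentile), which reached 590 bp upstream and 802 bp downstream of the nearest TSS. Its midpoint fell in an exon of *Hdac2*, 106 bp downstream of that TSS. The CpG ratio was 0.830 at the 5′ end. No other peak lay between this one and the next 74.7 kb downstream, a stretch longer than 59.5% of the gaps between neighbouring peaks.

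*Hdac3*, the catalytic subunit of the NCoR/SMRT complexes, shared its promoter peak with another gene. The peak of 1719 bp (chr18:37953853-37955571, 60.7th percentile) also lay within 1 kb of a TSS of *Rell2*, a transmembrane gene of the RELT family that is transcribed the other way from a 5′ end 63 bp off. Such sharing was seen at 28.5% of genes with a promoter peak and at 1 of the 6 HDAC genes. The midpoint lay 304 bp downstream of the 5′ end of *Hdac3* and 206 bp downstream of its nearest TSS, so it fell on the *Hdac3* side of the pair. *Hdac3* had its peak at a CpG ratio of 0.560, below the limit of 0.6 used here for CpG-rich starts.

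*Hdac4*, which encodes a class IIa enzyme that represses MEF2 targets in muscle and bone, had the widest promoter peak, and it was not at the 5′ end of the gene. The peak of 2814 bp (chr1:92178834-92181647, 88.7th percentile) was centred 56.5 bp downstream of an inner TSS and 15458.5 bp downstream of the 5′ end. The CpG ratio was 0.990 at the inner start of the basic annotation, under the peak, and 0.271 at the 5′ end, where the nearest peak edge was 14052 bp away. When only the 5′ end of the gene was counted, *Hdac4* had no promoter peak and the count in classes II and IV fell to 2 of 6. The rest of the 266921-bp body was free of peaks. The peak-free stretches on either side of the one called, of 304.9 kb and 249.7 kb, ran beyond the body. Among genes with a body of 200 kb or more, 23.1% had a promoter peak and 58.5% had no peak in the window. *Hdac4* and *Hdac9* are such genes, the first with a promoter peak and the second without any.

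*Hdac5*, a class IIa gene whose product is exported from the nucleus when phosphorylated, had 4 peaks in its window, the most of the 9 genes. Its own promoter peak measured 1576 bp (chr11:102229175-102230750, 56.6th percentile), with its midpoint 161.5 bp downstream of the nearest TSS and a CpG ratio of 0.859 at the 5′ end. The others lay at the promoters of *Lsm12* (520 bp) and *BC030867* (1002 bp) and at no promoter, the last a 496-bp peak (chr11:102245287-102245782) outside protein-coding genes, 15368.5 bp upstream of the nearest *Hdac5* TSS. With all of these kept, the body downstream of the promoter peak was still free of peaks. It lay in a peak-free stretch of 43.9 kb that ran past the 3′ end of the gene to the *Lsm12* peak.

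*Hdac10* had the most centred promoter peak, of 1075 bp (chr15:89128113-89129187, 41.1st percentile), with its midpoint 1 bp from a TSS and edges 536 bp upstream and 538 bp downstream of it. The CpG ratio at its 5′ end was 0.517, so *Hdac10*, like *Hdac3*, had a peak at a start below the CpG-rich limit. Besides the 2236-bp peak at *Tubgcp6*, its window held the narrowest of the 15 peaks, of 299 bp (chr15:89119048-89119346), in an exon of *Tubgcp6* and at no promoter.

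**Figure D2:**
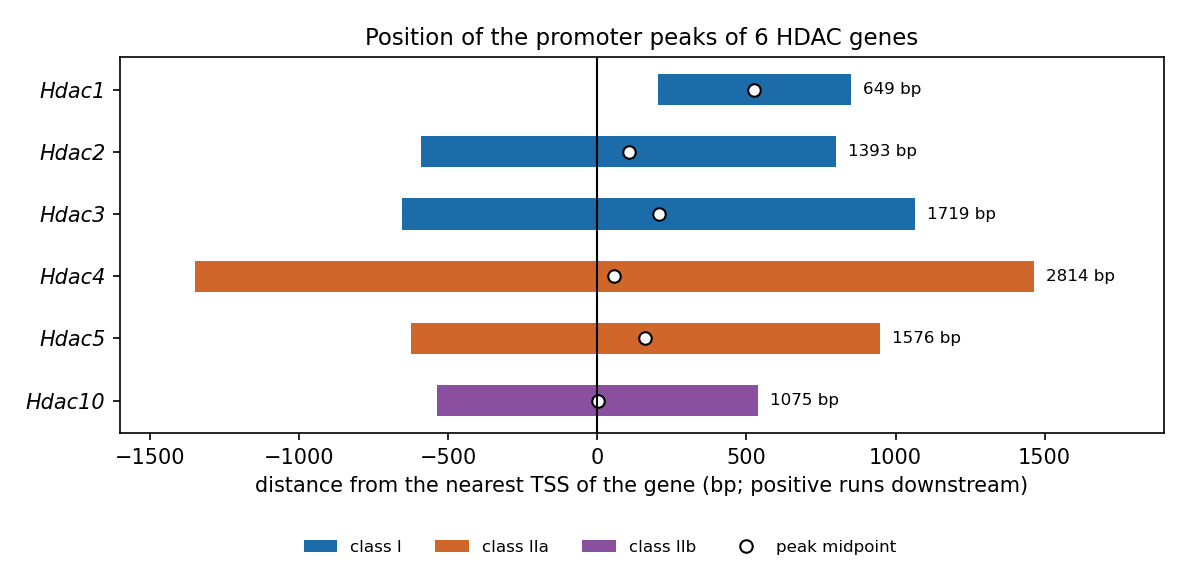
Horizontal bars show the promoter peak of each of 6 HDAC genes in bp from the nearest TSS of that gene (vertical line at 0, downstream to the right), coloured by class, with the midpoint as an open circle and the width printed beside it. The *Hdac1* bar starts 203 bp to the right of the line, and the other 5 bars cross it.

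The midpoints of all 6 promoter peaks lay downstream of the nearest TSS, by 1 bp at *Hdac10* and by 527 bp at *Hdac1*. In all genes with a promoter peak, the midpoint of the widest such peak lay downstream in 61.3%. The 6 widths ran from 649 bp at *Hdac1* over 1075 bp, 1393 bp, 1576 bp and 1719 bp to 2814 bp at *Hdac4*. Class I genes had a median of 1393 bp and those of classes II and IV one of 1576 bp, with ranges that overlapped. Over all genes with a promoter peak the median was 1348.5 bp and the quartiles 765 and 2169 bp, so *Hdac1* lay below the lower quartile, *Hdac4* above the upper, and the other 4 between them.

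**Figure D3:**
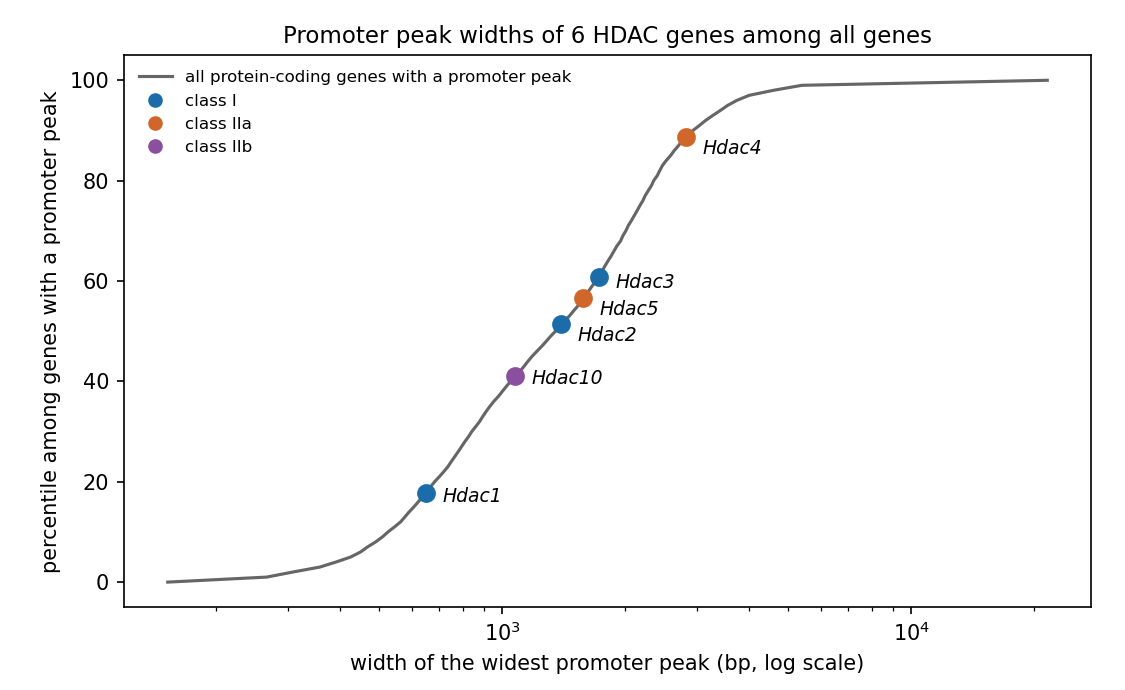
The line gives the percentile of each width (bp, log scale) among the widest promoter peaks of all 7836 protein-coding genes with one, and points mark 6 HDAC genes, coloured by class. *Hdac1* stands at the 17.7th percentile and *Hdac4* at the 88.7th, with the other 4 from the 41.1st to the 60.7th.

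*Hdac7*, *Hdac9* and *Hdac11* lay in stretches without peaks that reached far beyond the genes. Their windows held no peak, so each stretch had to be at least as long as the window. The windows measured 91.84 kb at *Hdac7*, 909.5 kb at *Hdac9* and 58.03 kb at *Hdac11*, and the median gap between neighbouring peaks was 48.97 kb. The rank of these stretches among all gaps therefore does not show that their surroundings were unusual. *Hdac7* encodes a class IIa enzyme known for roles in blood vessels and thymocytes. No peak was called between chr15:97705537 and chr15:97993076, a stretch of 287.5 kb around it that was longer than 83.2% of the gaps between neighbouring peaks. The TSS of *Hdac7* nearest to any peak was 88909 bp away. Both of its inner starts of the basic annotation near position 97831494 were CpG-rich, with ratios of 0.843 and 0.773, while the ratio at its 5′ end was 0.228. The neighbouring *Vdr* (vitamin D receptor), *Rapgef3* (a cAMP-activated exchange factor) and *Slc48a1* (a heme transporter), which overlaps *Hdac7*, had no promoter peak either. Among all protein-coding genes 35.7% had one, so its absence at these neighbours, and at those named below, is the more common case.

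*Hdac9*, the longest of the 9 genes with 869516 bp, lay within a stretch of 2611 kb without a peak, which only 142 of 11085 gaps between neighbouring peaks exceeded. The nearest peak was 616963 bp from the gene body on the left and 1124566 bp on the right. Its 5′ end had a CpG ratio of 0.0559 and its CpG-rich TSS one of 0.871, and both belonged to transcripts outside the basic annotation. At its starts within that annotation the ratio ran from 0.159 to 0.217. No promoter peak was found at the adjacent *Twist1*, a transcription factor of mesoderm, or at *Prps1l1*, a testis-expressed nucleotide synthesis gene.

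*Hdac11* was short, at 18028 bp, and lay in a stretch of 324.3 kb without a peak. The nearest peak edge was 40187 bp from its 5′ end, at the promoter of *Nup210*, a nuclear pore gene. The CpG ratio at the 5′ end of *Hdac11* was 0.486. *Fbln2*, the extracellular matrix gene on its other side, had no promoter peak.

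**Figure D4:**
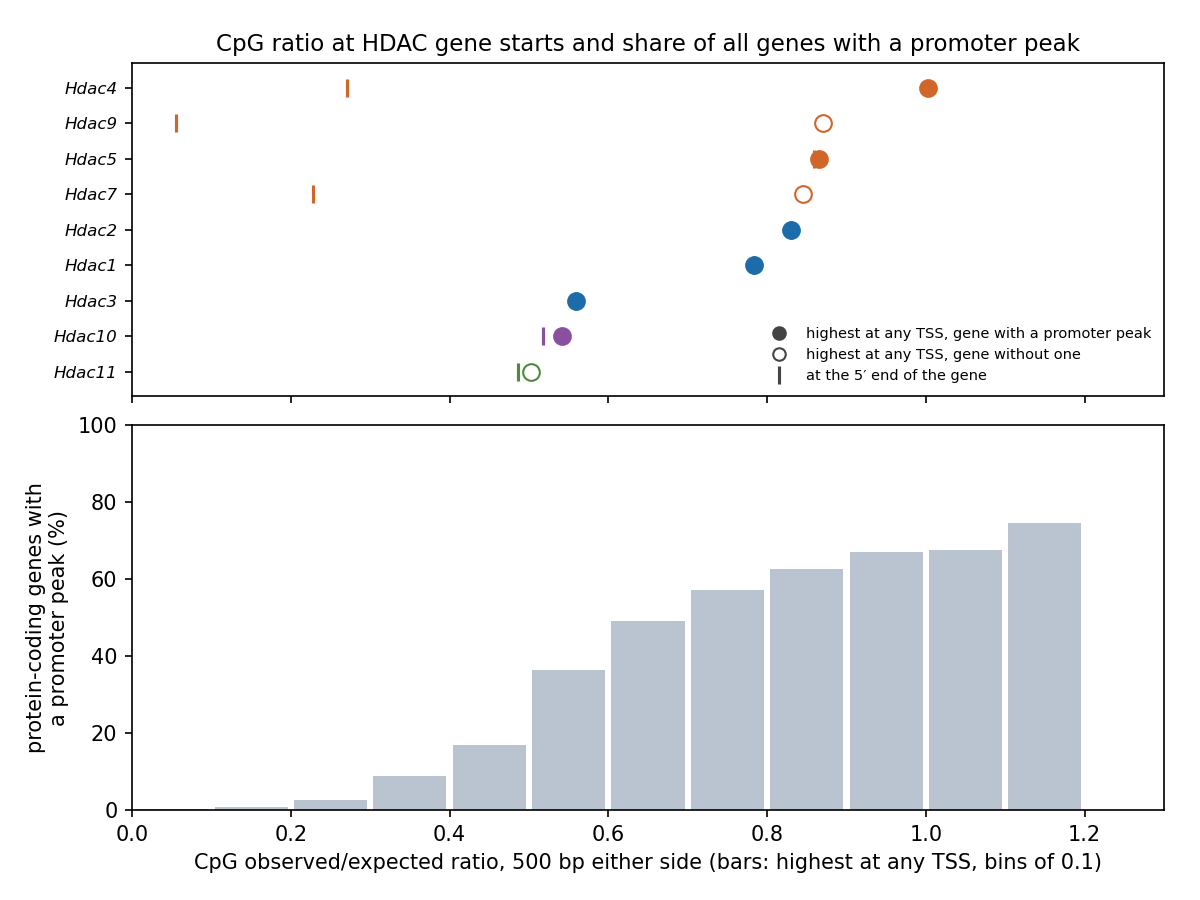
The upper panel places each HDAC gene by its CpG observed/expected ratio (500 bp on either side), with a circle for the highest ratio at any TSS, filled where the gene has a promoter peak, and a tick for the ratio at the 5′ end. Bars below give the share of all protein-coding genes with a promoter peak in bins of 0.1 of the highest ratio, and *Hdac7* and *Hdac9* are open circles above 0.8, where the bar from 0.8 to 0.9 stands at 62.6%.

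CpG-rich starts had a peak more often over all genes, and the HDAC genes were compared with that background. At the 5′ end, 3 genes were CpG-rich (*Hdac1*, *Hdac2* and *Hdac5*) and all 3 had a promoter peak, as did 60.4% of all genes with a CpG-rich 5′ end. Of the 6 genes below the limit, 3 had a promoter peak (*Hdac3*, *Hdac4* and *Hdac10*), beside 14.7% of all such genes. When every TSS of a gene was considered, a choice made after the values were seen, 6 genes had a CpG-rich TSS. Of these, 4 had a promoter peak, all but *Hdac7* and *Hdac9*, beside 59.1% of all such genes. Of the 3 genes with no CpG-rich TSS, *Hdac3* and *Hdac10* had a promoter peak and *Hdac11* did not, beside 9.87% of all genes with no CpG-rich TSS. All 3 had their highest ratio between 0.5 and 0.6, a bin in which 36.5% of genes had a promoter peak.

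Some related HDAC genes have a related gene as nearest neighbour on one side, although distances and the other flank can differ. *Hdac2* is flanked by *Marcks*, 131485 bp away, and *Hdac1* by its relative *Marcksl1*, 118 bp away. Both neighbours encode actin-regulating substrates of protein kinase C. *Marcks* had a promoter peak of 1191 bp, whereas *Marcksl1* had none and its nearest peak edge was 12931 bp from a TSS. *Hdac4* is flanked by *Twist2* and *Hdac9* by *Twist1*, and neither *Twist* gene had a promoter peak, with the nearest edges 72152 bp and 527055 bp away. Around the other genes, promoter peaks were found at *Lck* (a T cell kinase, 1901 bp), *Diaph1* (an actin-nucleating formin, 921 bp), *Fchsd1* (916 bp), *Ndufa10* (a subunit of respiratory complex I, 2191 bp), *BC030867* and *Tubgcp6*, and not at *Hs3st5* (a heparan sulfate sulfotransferase), *G6pc3* (a glucose phosphatase) or *Mapk12* (a p38 kinase). The remaining peak of the *Hdac1* window, of 596 bp (chr4:129500055-129500650), lay outside protein-coding genes, 9112.5 bp from the nearest TSS, that of *Fam229a*.

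Most of the listed genes whose products work with these enzymes had promoter peaks. The lists were chosen with earlier results of these data known, so the shares here and in the next paragraph describe the listed genes alone. Of 33 listed subunits of the corepressor complexes that hold class I HDACs, 26 (78.8%) had a promoter peak, beside 35.7% of all protein-coding genes and 60.4% of those with a CpG-rich 5′ end. In NuRD, which couples deacetylation to nucleosome remodelling, 8 of 10 had one, the widest at *Mta2* (3273 bp). The remodellers *Chd3* and *Chd4* had none, with their nearest peak edges 1029 bp and 1608 bp from a TSS, beyond the limit of 1 kb. In SIN3, 9 of 12 had one, all but *Sin3b*, *Sap18* and *Brms1l*, and the widest was at *Ing1* (4902 bp), which encodes a reader of methylated H3K4. In CoREST, which pairs deacetylation with H3K4 demethylation, 5 of 7 had one, all but *Rcor3* and *Hmg20b*.

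All 4 listed NCoR/SMRT genes, the partners of HDAC3, had a promoter peak, with the widest at *Ncor1* (3843 bp). Of 10 partners of class IIa enzymes, namely MEF2 factors and phosphoserine-binding Ywha proteins, 9 had one, beside the same 35.7% and 60.4%, with the widest at *Ywhag* (2661 bp), while *Mef2c* had no peak within 569365 bp of a TSS. The class IIa genes themselves had a promoter peak in 2 of 4. All 7 sirtuin genes, which encode the NAD-dependent deacetylases, had one, again beside 35.7% of all genes. Their widths ran from 500 to 2069 bp (*Sirt3*) with a median of 1078 bp, and a peak covered a TSS in 4 of 7, beside 70.0% of all genes with a promoter peak. The lists hold many CpG-rich genes, and the part of CpG content in these counts was not tested.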

How the data were processed

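H3K56ac ChIP-seq was performed on Scramble and *Sirt6* KD mESCs, with libraries grouped by their titles. The authors trimmed reads, aligned them to mm10 with bowtie (uniquely placed reads only), removed duplicates and called peaks with MACS2, which were cleared of blacklisted regions and merged across libraries. The deposited file holds only start and end positions, counted from 0 and printed here counted from 1. Its name, score and strand columns each hold a constant, and read depth is not part of it, so no interval is given. Genes were taken from GENCODE M21. The CpG ratio was computed on GRCm38, and uniqueness by exact matching of 75-base stretches on both strands. All members were named, as were their neighbours, and, of the partner lists, genes without a promoter peak (sirtuins and NCoR/SMRT have none) and the widest peak, except for an item not reported here. The members and lists were chosen with earlier results of these data known. On simulated positions, 200 of 200 planted genes were recovered. Alternatives varied the distance limit, the TSS set, the flank and the minimum width. Calculations used Python 3.11.15 and numpy 2.4.6.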

Additional observations from a re-analysis of the deposited data

How the results depend on the processing

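The count of class I genes with a promoter peak stayed at 3 and that of classes II and IV at 3 under each alternative distance limit, midpoint rule, basic annotation and width minimum, except that counting only the 5′ end of a gene gave 2 in classes II and IV and moved their median width to 1325.5 bp. Of 39 alternative values, 24 stayed (counts within 1.5 times, medians without any change) and 15 moved. Most of the 15 came from the size of the window. Peaks in class I windows numbered 4 with flanks of 10 kb, 3 in the bodies alone and 4 without peaks at promoters of other genes only, and those in classes II and IV 13 with flanks of 50 kb, 4 in the bodies alone and 5 without such peaks. The median density in class I was 3.76 peaks per 100 kb in the bodies, 2.15 with 10 kb and 2.37 with 50 kb, and in classes II and IV 0.187, 0.174 and 0.560, so class I stayed higher in each. With the flanks included, the median share covered was 4.72% in class I and 0.458% in the others. Taking the CpG ratio at any TSS, chosen after seeing the data, gave 4 CpG-rich genes with a promoter peak in place of 3. No paired analysis was possible because replicates were joined before deposit and no result comes from a test, and leaving out a library was not possible for the same reason.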
